A study of Mus musculus with 8 samples.

Results

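The 8 genes described here, Angptl4, Pnpla2, G0s2, Plin2, Plin4, Plin5, Cidec and Cd36, encode proteins that bring fatty acids into the hepatocyte, store them as triglyceride in lipid droplets and release them again. They were taken as a named list from the 21938 protein-coding genes of the annotation. Chromatin immunoprecipitation sequencing (ChIP-seq) had mapped the glucocorticoid receptor (GR), the hormone-activated transcription factor through which corticosterone acts, in 6 mouse liver libraries. Merging GR regions that overlapped between libraries gave 51431 sites. Of these, 111 were centred within 50 kb of the start of at least 1 of the 8 genes, and so were 23 of 8068 regions bound by the forkhead factor FOXO1.

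All livers came from male C57BL/6J mice on regular chow and were taken at the onset of the dark phase. The control group (ctrl., 2 libraries) was fed at night only during the last week. The calorically restricted group (cal. res., 2 libraries) was brought gradually to a reduced ration, given when the lights went off. The corticosterone group (CORT, 2 libraries) was fed at night and received a daily injection of corticosterone, the main glucocorticoid of mice, shortly before lights-off. Whether the ctrl. mice were injected with vehicle was not given in the sources used here. The restriction protocol was longer than the injection protocol, and age at collection may differ between the groups. The FOXO1 list came from cal. res. livers only and from 2 libraries merged before peak calling, so it has no replicate spread and no ctrl. counterpart. Whole liver was used, so cells other than hepatocytes contributed chromatin.

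The lists differed in length. Distinct regions numbered 36234 and 12458 for ctrl. (replicate 1, then 2, as in all pairs of values here), 22707 and 18747 for cal. res. and 29473 and 39136 for CORT. Presence at a site moves with list length and is given below also with 12458 regions per library, those with the smallest p-values. The library names in the labels followed 2 styles. Ctrl. replicate 2 and both cal. res. libraries shared one style, and ctrl. replicate 1 and both CORT libraries shared the other. The labels do not call this a batch, and in any comparison of cal. res. with CORT the style and the treatment cannot be told apart. The peak caller's fold enrichment, the pileup at a summit over the local background, can be compared only within a list. Levels are therefore given as the percentile of a site's fold enrichment among all regions of its own list, where 100 is the most enriched region. Over the 8097 sites with a region in all 6 lists the median percentile ran from 61.3 in ctrl. replicate 2 to 87.1 in CORT replicate 2, and the percentiles of single sites carry that difference between lists.

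In the fasted state adipose tissue sends fatty acids to the liver, which takes them up, re-esterifies part of them into droplets and burns the rest. Glucocorticoids promote this traffic, and GR binds DNA either directly at a palindromic element or beside other factors. FOXO1 is active when insulin is low. Angptl4 encodes a secreted inhibitor of lipoprotein lipase. Cd36 encodes a fatty acid transporter of the plasma membrane. Pnpla2 encodes adipose triglyceride lipase, which takes the first fatty acid off stored triglyceride, and G0s2 encodes its inhibitor. Plin2, Plin4 and Plin5 encode perilipins, proteins that coat the droplet, and Cidec encodes a protein that joins small droplets into larger ones.

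At each gene a single site with the highest mean percentile over the 6 lists is shown first, since these sites are where GR sat most strongly around the 8 genes. There are 7 of them, because Plin4 and Plin5 are neighbours and share theirs. The sequences are the reference (GRCm38, the NCBI name of mm10; plus strand), 50 bases to either side of the summit, and capitals mark a match to 1 of 5 short motifs. At Angptl4 the summit lies in the 3′ UTR, and only the motifs and the bases beside them are shown (chr17:33774884-33774912 for the GR element and chr17:33774827-33774855 for the forkhead word).
Angptl4, GR element: acaacagaGAACAAAATGTTCtgaggttg
Angptl4, forkhead word: tccgaggaacaTGTTTACttgaactttga
Plin4 and Plin5 (chr17:56108808-56108908): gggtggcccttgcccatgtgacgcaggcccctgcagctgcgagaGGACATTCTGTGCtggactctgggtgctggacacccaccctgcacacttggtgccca
Plin2 (chr4:86690366-86690466): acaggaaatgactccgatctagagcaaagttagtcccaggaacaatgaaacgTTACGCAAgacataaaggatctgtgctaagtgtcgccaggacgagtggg
Cidec (chr6:113428166-113428266): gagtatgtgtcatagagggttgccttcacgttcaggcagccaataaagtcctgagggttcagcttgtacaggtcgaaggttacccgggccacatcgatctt
Pnpla2 (chr7:141476645-141476745): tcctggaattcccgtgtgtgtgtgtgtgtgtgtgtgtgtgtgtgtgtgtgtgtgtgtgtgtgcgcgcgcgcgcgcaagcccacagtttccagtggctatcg
G0s2 (chr1:193290092-193290192): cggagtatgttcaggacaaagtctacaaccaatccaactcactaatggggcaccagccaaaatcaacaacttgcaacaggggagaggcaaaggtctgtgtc
Cd36 (chr5:17863215-17863315): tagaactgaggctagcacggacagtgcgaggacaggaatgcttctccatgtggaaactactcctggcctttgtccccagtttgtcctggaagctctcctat

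The GR element was searched as GNACANNNTGTNC, where N is any base, and its shorter form as AGAACA, which can lie inside the full element. The other words were TGTTTAC or TGTTTGC for forkhead factors, AGGNCANAGGNCA for the PPAR element, and TTGCNNAA for C/EBP, all on both strands of the stretches shown. The full GR element was found in the windows of both the Angptl4 and the Plin4 sites, and in 2 of the 23 sites at the 8 genes that had a region in all 6 lists (8.70%). Over all 8095 such sites on the named chromosomes its share was 3.45%, and over 51428 sites of any kind 1.34%. The third of the 111 sites with it (2.70% in all) lay 49.58 kb upstream of Plin5 and had a region in 3 lists. The Plin4 element starts 6 bases before the summit and the Angptl4 element 30 bases after it, counted along the plus strand. The Angptl4 window also held the forkhead word, which was in 7.30% of all sites present in all 6 lists, and the Plin2 window held the C/EBP word, found in 10.4% of them. The Cidec, Pnpla2, G0s2 and Cd36 windows held none of these words. The Pnpla2 window is largely an alternating run of G and T. The PPAR element was in none of the 23 sites and in 0.556% of all sites present in all 6 lists.

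GR regions at the very top of all 6 lists had their summits just inside Plin4 and at the 3′ end of Angptl4. The Plin4 site (chr17:56108395-56111432) spans the gene start and joins 2 separate regions in every library but CORT replicate 2, which had 1. The values given are those of the strongest region, whose summit was 0.94 kb inside the gene, in an intron. Whether that region reaches the gene start in each library is not given here. The percentile of the Plin4 site was 99.8 in both ctrl. libraries, 100 in both cal. res. libraries, and 99.8 and 100 for CORT, where 100 is a rounded value. It ranked 69 and 26 for ctrl., 12 and 10 for cal. res. and 72 and 16 for CORT, counted from the most enriched region. The lists differ in length, so these ranks give no order of the groups. The summits of the 6 libraries lay within 20 bp of each other. Only 0.178% of protein-coding genes had a site with as high a mean percentile within 50 kb.

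The Angptl4 site (chr17:33773181-33776021) is centred 7.23 kb into the gene and had its summit in the 3′ UTR. Its percentile was 99.9 and 99.3 in ctrl., 99.5 in both cal. res. libraries, and 99.7 and 99.8 in CORT. Its ranks were 54 and 86, 110 and 103, and 99 and 60 in the same order. By percentile the other 4 libraries lay between the ctrl. replicates. The 6 summits lay within 15 bp. FOXO1 peaked 2 bp from the GR summit, with a fold enrichment of 34.1, at percentile 99.8 of its list, the highest FOXO1 value at any of the 8 genes.

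**Figure D1:**
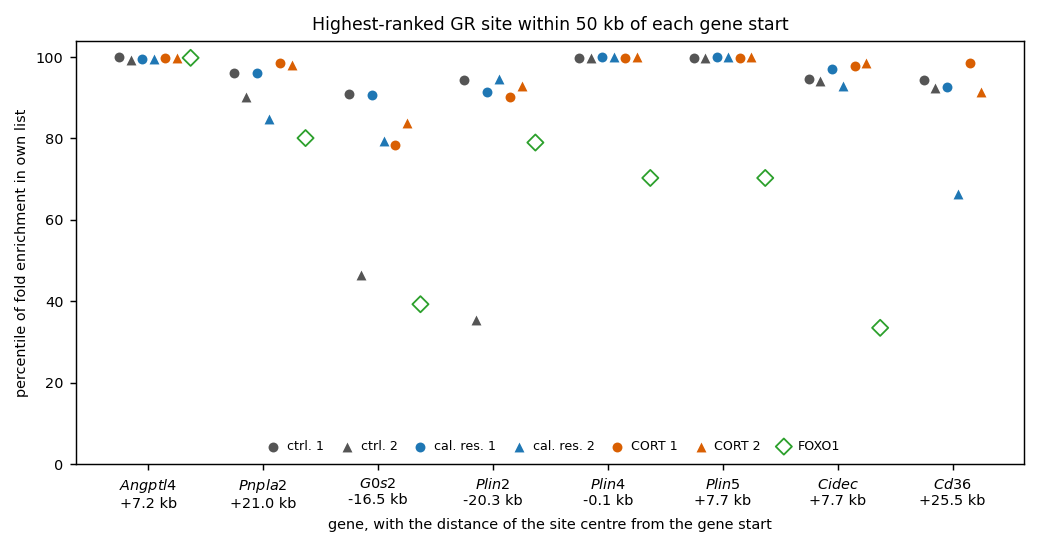
Percentile of fold enrichment within the own list (y axis) of the highest-ranked GR site of each of the 8 genes (x axis, with the distance of the site centre from the gene start), 1 point per library (grey ctrl., blue cal. res., orange CORT; circles replicate 1, triangles replicate 2) and an open diamond for the FOXO1 region at the site. The Angptl4 and Plin4 points lie at 99.3 or above in all 6 lists, ctrl. replicate 2 falls to 46.4 at G0s2 and 35.4 at Plin2, and Cd36 has no FOXO1 diamond.

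Within 50 kb of the Angptl4 start 17 sites had a GR region in at least 1 library. At least as many sites were found at 2.91% of protein-coding genes, against a median of 3. The window also holds the starts of 4 other protein-coding genes. Only 6 of the 17 sites had the Angptl4 start as their nearest, and 3 had a region in all 6 lists. The gene is an inhibitor of fatty acid uptake from lipoproteins, and it had the most FOXO1 regions of the 8, with 7. A second site (chr17:33778864-33781881) covers its start, with a summit 2.35 kb inside the gene in an intron. FOXO1 was at percentile 78.5 there, 9 bp from the GR summit. GR percentiles were 94.8 and 42.8 for ctrl., 83.5 and 77.6 for cal. res. and 94.0 and 98.0 for CORT at this site. Cal. res. lay between the ctrl. libraries, and only CORT replicate 2 was above ctrl. replicate 1. A site 21.54 kb downstream, chosen for mention after its values were seen, had a different order. It was centred 0.24 kb from the start of Rab11b, with its summit in an intron of that gene. There the percentiles were 90.8 and 46.7 for ctrl., 26.8 and 14.1 for cal. res. and 87.7 and 90.8 for CORT, so both cal. res. libraries were below all others. Of the 7 FOXO1 regions, 1 had no GR region in any library, at -14.67 kb from the gene start and percentile 73.7.

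Cd36, the fatty acid transporter, had 6 GR sites and no FOXO1 region within 50 kb. GR had a region in all 6 lists at 2 intronic sites of the gene. The stronger intronic site (chr5:17862967-17863651), 25.49 kb from the start, had percentiles of 94.3 and 92.3 for ctrl., 92.7 and 66.4 for cal. res. and 98.6 and 91.3 for CORT. Here cal. res. replicate 2 was the lowest library and the ctrl. and CORT values overlap. The nearer site, 11.92 kb from the start, had 80.6 and 69.3, 83.8 and 64.9, and 60.1 and 78.1 in the same order, with overlap of all groups. No GR region was centred closer to the Cd36 start in any list.

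Pnpla2, the lipase, lies in a gene-dense stretch, and its 26 sites are shared with the starts of 9 other protein-coding genes. Only 1 of the 26 had the Pnpla2 start as its nearest, and 0.296% of protein-coding genes had as many sites. That site (chr7:141454796-141457225) covers the start with a summit in an intron, at percentiles of 76.4 and 76.7 for ctrl., 85.5 and 83.9 for cal. res. and 81.4 and 87.8 for CORT. By percentile all 4 libraries of cal. res. and CORT were above both ctrl. libraries at the Pnpla2 start. This order did not hold on the quantile-normalized log2 scale, where ctrl. replicate 2, at 3.56, was above both CORT libraries, at 3.15 and 3.22. It was also above cal. res. replicate 1, at 3.51, and close to cal. res. replicate 2, at 3.57. On that scale the limma difference from ctrl. was 0.36 (95% interval -0.42 to 1.14) for cal. res. and 0.00 (-0.78 to 0.79) for CORT. A FOXO1 region at percentile 95.6 overlapped it, with its summit 295 bp from that of GR, and the GR summits themselves were spread over 898 bp. The highest-ranked site of the window (chr7:141474690-141477620) was 20.96 kb downstream in an intron of Tspan4, at 96.1 and 90.3 for ctrl., 96.0 and 84.8 for cal. res. and 98.5 and 98.0 for CORT. CORT was highest there and ctrl. and cal. res. overlap.

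G0s2, the inhibitor of that lipase, had 19 sites, which run into the neighbouring genes Lamb3 and Hsd11b1. The start of G0s2 itself was covered by a modest site (chr1:193272313-193273795) at 62.7 and 48.7 for ctrl., 48.1 and 28 for cal. res. and 53.4 and 86.2 for CORT. By percentile both cal. res. libraries were below the other 4, at the closest 48.1 against 48.7, and ctrl. and CORT overlap. On the quantile-normalized log2 scale cal. res. replicate 1, at 2.59, was above ctrl. replicate 1, at 2.42, and CORT replicate 1, at 2.40. No FOXO1 region overlapped the site. The highest-ranked site (chr1:193289011-193290450), 16.51 kb upstream in an intron of Lamb3, had 90.9 and 46.4 for ctrl., 90.6 and 79.4 for cal. res. and 78.4 and 83.8 for CORT. The other 4 libraries all lay between the ctrl. replicates. A further site, chosen after its values were seen, lies 31.05 kb downstream of the G0s2 start in the 5′ UTR of Hsd11b1, which encodes the enzyme that regenerates active glucocorticoid inside the hepatocyte. It had percentiles of 79.8 and 59.0 for ctrl., 85.1 and 82.7 for cal. res. and 70.0 and 82.5 for CORT, and both cal. res. libraries were above the other 4.

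Among the perilipins, Plin4 and Plin5 start within 10 kb of each other and share 14 sites, so their counts are not independent. Plin4 had 15 and Plin5 19, of which 7 and 2 had the start of that gene as their nearest. Plin5, the perilipin of tissues that burn fat, has its start inside a broad site (chr17:56115891-56125486; 9596 bp) that holds 2 to 8 separate regions per library. The start of Lrg1 lies in the same site, 1.31 kb from its centre. The strongest summits of the libraries were spread over 3621 bp, so the values of this site are not levels at the Plin5 start alone. The percentiles of the broad site were 97.1 and 87.4 for ctrl., 96.7 and 95.7 for cal. res. and 98.7 and 99.2 for CORT. Both CORT libraries were above the rest, and ctrl. and cal. res. overlap. The site centred nearest the Plin5 start, at 2.33 kb, was a region of CORT replicate 2 alone at percentile 36.2. Plin5 had 5 FOXO1 regions within 50 kb and Plin4 had 3, at percentiles between 5.91 and 70.3.

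Plin2, the main droplet coat protein of hepatocytes, had only 6 sites, a number that 31.2% of protein-coding genes reach, and all 6 had the Plin2 start as their nearest. The strongest (chr4:86689866-86690859) was 20.3 kb upstream between genes, at percentiles of 94.4 and 35.4 for ctrl., 91.5 and 94.7 for cal. res. and 90.1 and 93.0 for CORT. Ctrl. replicate 2 stood apart at this site and the other 5 libraries were alike. It was also the single site at Plin2 with FOXO1, at percentile 79.0. The Plin2 start (chr4:86669596-86670302, summit in the 5′ UTR) had a region at percentile 6.13 in ctrl. replicate 1 and none in ctrl. replicate 2 or in either cal. res. library. In CORT it was at 67.9 and 63.3, so that only CORT held the start by both libraries. 1.98 kb upstream a weaker site was held by cal. res., at 25 and 5.21, with a region at 32.3 in CORT replicate 2 and none in ctrl.

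Cidec, the droplet fusion protein, had 17 sites and 1 FOXO1 region. Its window holds the starts of 6 other protein-coding genes, and 7 of the 17 sites had the Cidec start as their nearest. Its strongest site (chr6:113427325-113428853) had its summit in a coding exon 7.54 kb into the gene, at 94.5 and 94.0 for ctrl., 97.1 and 92.8 for cal. res. and 97.7 and 98.6 for CORT. Both CORT libraries were above the other 4 by percentile, by a small margin, while on the quantile-normalized log2 scale CORT replicate 1 and cal. res. replicate 1 were both at 4.50. FOXO1 overlapped it at percentile 33.5, 15 bp from the GR summit. The site centred nearest the start, 0.96 kb inside the gene, was weak and had a region at 16.1 in ctrl. replicate 1, 30.1 in cal. res. replicate 1, and 33.0 and 59.1 in CORT. CORT was the highest there, and ctrl. replicate 2 and cal. res. replicate 2 had no region. At the far edge of the window, 47.47 kb upstream in the 5′ UTR of Creld1, the percentiles were 81.1 and 82.8 for ctrl., 62.5 and 53.8 for cal. res. and 95.5 and 97.1 for CORT, and the 3 groups do not overlap.

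**Figure D2:**
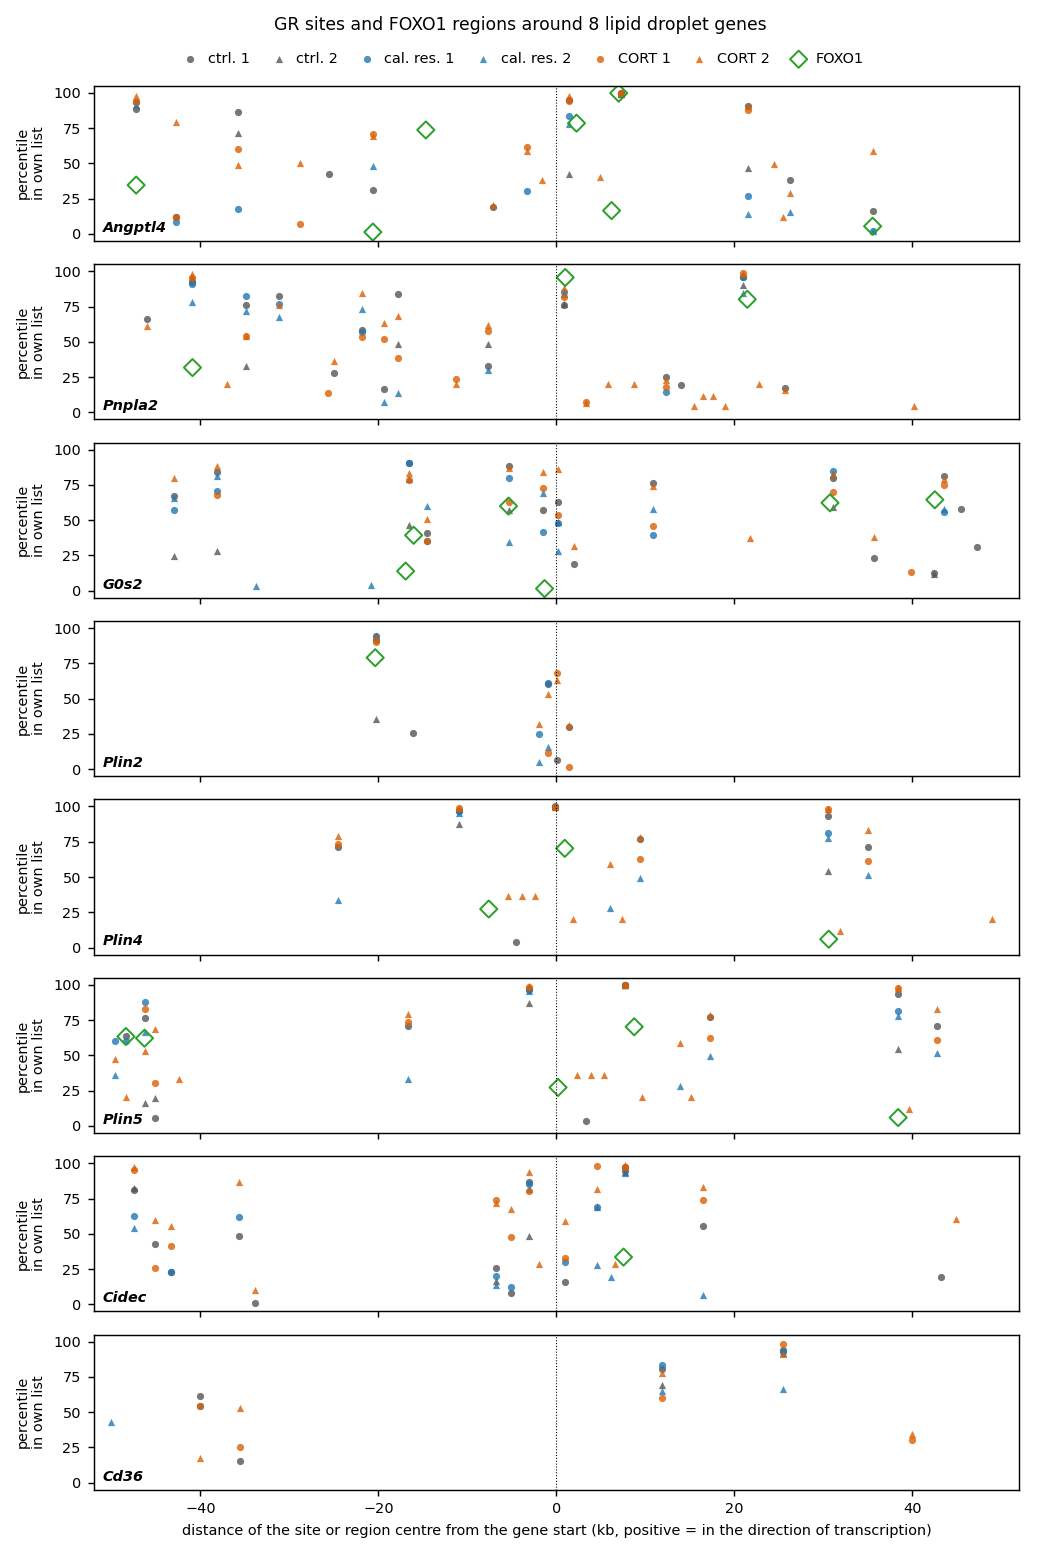
Every GR site (points, coloured by group and shaped by replicate) and every FOXO1 region (open diamonds) within 50 kb of the 8 gene starts, with distance from the start in kb on the x axis and the percentile within the own list on the y axis. A library with no region at a site has no point. The 6 points stacked near 100 are at the site that spans the Plin4 start and at the site centred 7.23 kb into Angptl4. Most of the single points are orange triangles, CORT replicate 2.

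In all, ctrl. held 29 of the 111 sites (a region in both libraries), cal. res. held 36 and CORT held 56. Over all 51431 sites the shares held were 21.4%, 27.9% and 43.7%, against 26.1%, 32.4% and 50.5% at the 8 genes. All 6 libraries had a region at 23 sites, 20.7% against 15.7% of all sites. By gene, CORT held more sites than ctrl. at 8 of 8 genes, and cal. res. held more than ctrl. at 4 of 8, which were Angptl4, G0s2, Plin2 and Cidec. At 22 other genes of droplet and lipase biology, listed below, CORT held more than ctrl. at 21 and cal. res. at 9, so these counts are not particular to the 8 genes. The share of sites seen in CORT replicate 2 alone was 22.5%, or 25 sites, against 16.9% of all sites, and this library had the longest list. With 12458 regions per library the 8 genes kept 52 sites, of which ctrl. held 24, cal. res. 24 and CORT 30. On that footing CORT held more than ctrl. at 5 of 8 genes, as many at Plin2 and Cd36, and fewer at Pnpla2.

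**Figure D3:**
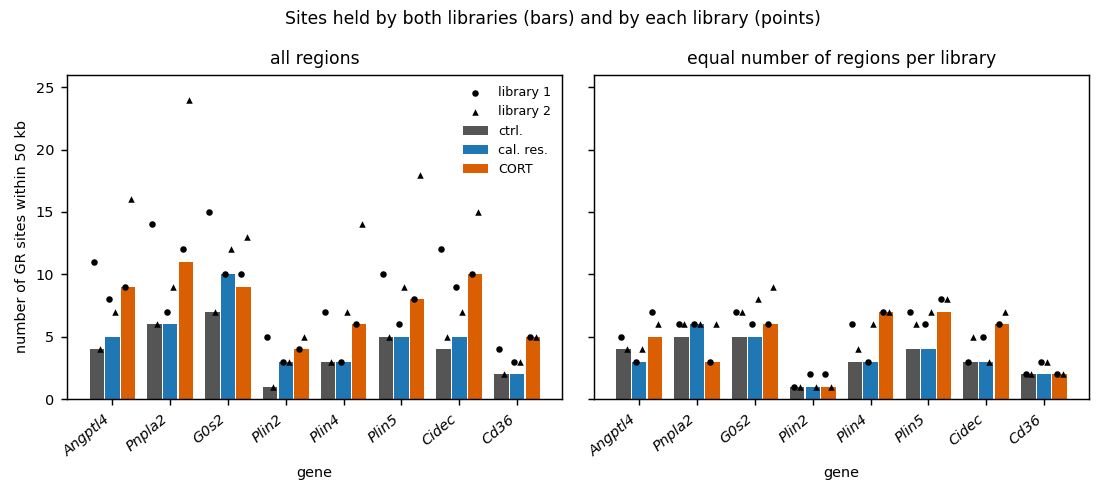
Number of GR sites within 50 kb of each gene start (y axis) that both libraries of a group hold (bars, starting at 0) and that each library holds alone or with others (circles replicate 1, triangles replicate 2), with all regions on the left and with 12458 regions per library on the right. The orange CORT bars stand above the grey ctrl. bars at all 8 genes on the left and at 5 of them on the right.

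A site was counted as gained when cal. res. or CORT held it and ctrl. did not. Cal. res. gained 12 of the 111 sites and CORT gained 29, 10.8% and 26.1%, against 11.5% and 24.3% of all sites, so the shares at the 8 genes were near those of the genome. Most of these sites were not without GR in ctrl. livers. Ctrl. replicate 1 had a region at 9 of the 12 and at 23 of the 29. Against ctrl. replicate 2 alone, the ctrl. library of its own name style, cal. res. gained 11, and against ctrl. replicate 1 alone, that of its style, CORT gained 6. With 12458 regions per library the numbers were 4 and 11.

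No ctrl. library had a region at 2 of the sites held by cal. res. and at 5 of those held by CORT, and over all sites these shares were 0.842% and 4.28%. The cal. res. sites were the Plin2 site 1.98 kb upstream and a site 49.58 kb upstream of Plin5 in an intron of Tnfaip8l1, at 60.4 and 36.0 in cal. res. and 47.4 in CORT replicate 2. Of the CORT sites, the one 3.30 kb upstream of Angptl4 was at 61.8 and 59.1, with a region at 30.1 in cal. res. replicate 1. The other 4 had no region in cal. res. either. They lay in the 5′ UTR of Kank3, 28.78 kb upstream of Angptl4 (7.05 and 50), 11.29 kb upstream of Pnpla2 beside the start of Pidd1 (23.3 and 20.2), in an intron of Pnpla2 (7.31 and 6.32) and in an intron of Cd36, 39.95 kb from the start (30.6 and 34.7). All of the CORT values but 3 lay below percentile 50 of their lists.

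FOXO1 overlapped 20 of the 111 GR sites, 18.0% against 13.9% of all sites. The share was 51.7% of the sites held by ctrl. (15 of 29, exact 95% binomial interval 32.5 to 70.6), 47.2% of those held by cal. res. (17 of 36, 30.4 to 64.5) and 30.4% of those held by CORT (17 of 56, 18.8 to 44.1). The intervals cover counting error only and overlap. Over all sites held by cal. res. the share was 39.8%. The matching shares over all sites held by ctrl. and by CORT are not given here, so the order of the groups cannot be called particular to the 8 genes. With 12458 regions per library the shares were 58.3%, 58.3% and 53.3% at the 8 genes. At that list length FOXO1 overlapped 36.5% of the sites at the 8 genes, held or not, against 29.6% of all sites. Of the 23 sites present in all 6 lists 14 overlapped FOXO1, or 60.9%, against 50.7% of all such sites. The median distance between the FOXO1 summit and the nearest GR summit was 4.5 bp at the 20 sites and 11 bp at all 7133 sites that overlapped. These medians take the closest summits, whereas the distances given above for single sites use 1 GR summit, from the library where the site ranks highest. Sites with a region in all 6 lists, which offer more summits, were 14 of the 20 and 4104 of the 7133, so the 2 medians are not on an equal footing. Sites with FOXO1 had a median mean percentile of 80.0, against 10.2 for those without, and over all sites these medians were 66.9 and 9.40. The 8 genes differed among themselves, with FOXO1 at 5 of 17 sites at Angptl4 and 5 of 19 at G0s2, and at 1 of 17 at Cidec and 0 of 6 at Cd36.

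Whether enrichment differed between groups was tested at the 8097 sites with a region in all 6 lists, by limma on quantile-normalized log2 fold enrichment with Benjamini-Hochberg adjustment over all of them. None of the 23 sites at the 8 genes passed an adjusted p of 0.05 in any of the 3 contrasts. Over all sites 0% were called for cal. res. against ctrl., 0.198% for CORT against ctrl. and 0.111% for cal. res. against CORT. The last were 1 higher and 8 lower in cal. res., and with median centring 123 higher and 192 lower. At an unadjusted p under 0.05 there were 2, 2 and 4 of the 23, or 8.70%, 8.70% and 17.4%, against 10% (811 sites), 12.5% and 16.5% of all sites. The standard errors at the 23 sites lay between 0.23 and 0.46 on the log2 scale. Nothing says that the libraries of a group came from separate animals beyond the study calling them biological replicates, and 2 libraries a group give little hold on the spread.

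The log2 differences of the 23 sites had a median of 0.08 for cal. res. against ctrl., with 14 of 23 higher, and ran from -1.02 to 0.81. Over all sites 50.2% were higher. Without ctrl. replicate 1 the median was -0.06 (11 of 24 higher), and with name style as a term it was -0.02 (11 of 23). For CORT against ctrl. the median was 0.15, with 17 of 23 higher against 48.7% of all sites, and the range was -0.50 to 1.12. The CORT median was 0.03 (12 of 23 higher) without CORT replicate 2 and 0.34 (17 of 24) without CORT replicate 1. The site that spans the Plin4 start differed by 0.65 ± 0.26 (SE) between cal. res. and ctrl. (95% interval 0.10 to 1.21; limma adjusted p = 0.447) and by 0.12 between CORT and ctrl. (-0.44 to 0.68). The first of these was 0.39 without ctrl. replicate 1 and 1.25 with median centring. The Angptl4 3′ UTR site, with the forkhead word and the GR element shown above, differed by -0.23 (-0.73 to 0.26) and -0.06 (-0.55 to 0.44). Both Angptl4 differences changed sign with median centring in place of quantile normalization, to 0.44 and 0.21. The Plin2 upstream site differed by 0.81 (-0.05 to 1.68) in cal. res. and by 0.36 (-0.51 to 1.22) in CORT. The cal. res. difference there was 0.26 without ctrl. replicate 2 and 1.39 without ctrl. replicate 1. For the strongest sites of Pnpla2, G0s2, Cidec and Cd36 all the intervals against ctrl. contained 0.

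The 4 sites with an unadjusted p under 0.05 between cal. res. and CORT include 3 that were lower in cal. res. by point estimate. All 3 lay beside the start of another gene. The first was the site in the Angptl4 window beside the Rab11b start (-1.26 ± 0.34 SE, limma adjusted p = 0.117). The second was the site in the Cidec window at Creld1 (-1.31 ± 0.36, limma adjusted p = 0.118). The third was 30.56 kb downstream of Plin4 and centred 0.39 kb from the start of Hdgfl2 (-1.16 ± 0.35, limma adjusted p = 0.15). With median centring in place of quantile normalization the adjusted p was 0.0409 at the first, 0.0326 at the second and 0.0619 at the third. Without ctrl. replicate 1 it was 0.0444, 0.0364 and 0.0476, and without ctrl. replicate 2 it was 0.0342, 0.0285 and 0.0361, in the same order. Without any 1 of the cal. res. or CORT libraries the limma adjusted p lay between 0.244 and 0.814 at the 3 sites. With name style as a term, whose size rests on the 2 ctrl. libraries alone, the differences were -0.67 (limma adjusted p = 0.471), -2.12 (0.0978) and -0.48 (0.595). The fourth, 34.86 kb upstream of Pnpla2, was higher in cal. res. by 0.98 ± 0.33 (limma adjusted p = 0.171). In this contrast the name style of the libraries and the treatment cannot be told apart. Measured against ctrl., the first site differed by -1.02 ± 0.34 in cal. res. and by 0.25 ± 0.34 in CORT. The second differed by -0.54 ± 0.36 and 0.77 ± 0.36, and the third by -0.03 ± 0.35 and 1.12 ± 0.35, in the same order. The fourth differed by 0.56 ± 0.33 and -0.42 ± 0.33. By point estimate cal. res. was thus near ctrl. at the third site, and CORT was above both.

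**Figure D4:**
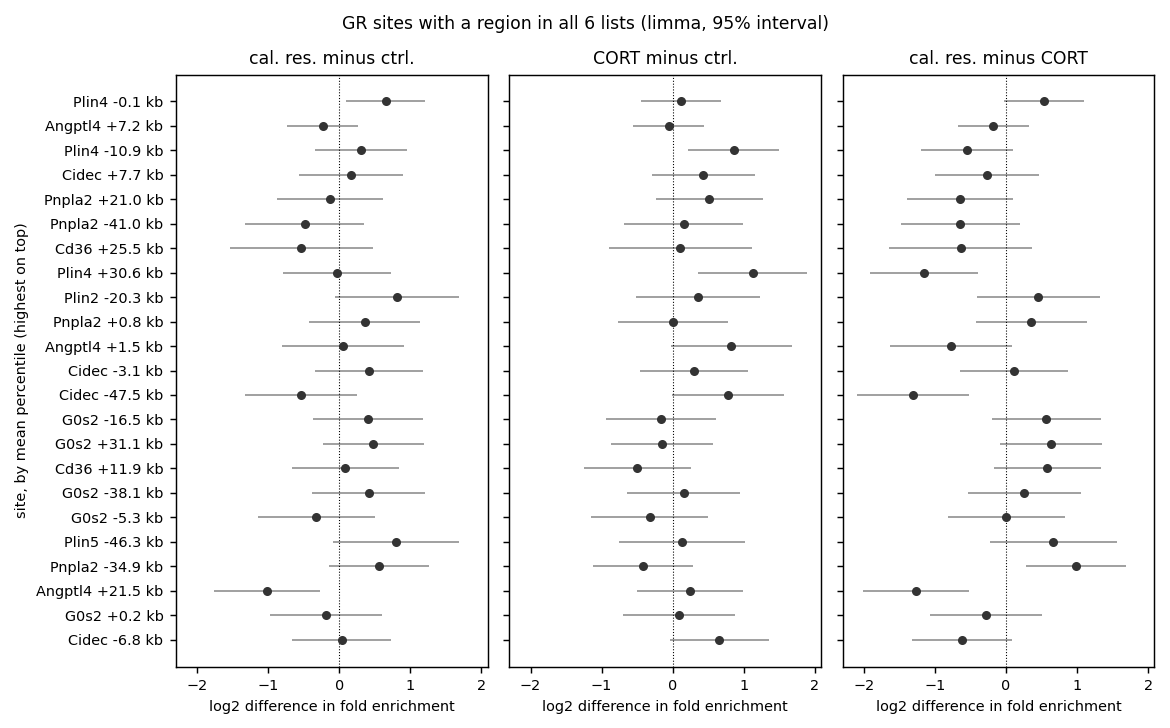
Log2 difference in fold enrichment (x axis; points, limma estimates; bars, 95% intervals) at the 23 sites with a region in all 6 lists, named by the first of the 8 genes and the distance in kb from its start, for the 3 contrasts. Most intervals cross 0, and the site that spans the Plin4 start lies at 0.65 in the left panel. The sites furthest to the left in the right panel are named by Cidec (-1.31) and Angptl4 (-1.26) and lie beside the starts of Creld1 and Rab11b.

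The 22 other genes of droplet and lipase biology on a second list (Lipe, Mgll, Abhd5, Lipa, Plin1, Plin3, Cidea, Cideb, Dgat1, Dgat2, Fitm1, Fitm2, Hilpda, Bscl2, Lpl, Fabp1, Fabp4, Acsl1, Hsd17b13, Pnpla3, Hcar2 and Faf2) gave similar numbers. They had 250 sites within 50 kb, and every gene had at least 2. Ctrl. held 58 (23.2%), cal. res. 68 (27.2%) and CORT 120 (48.0%). FOXO1 overlapped 45 of the 250, or 18.0%, the same share as at the 8 genes. The most sites were at Dgat2, which makes triglyceride, with 37, and at Acsl1, which activates fatty acids, with 35. Hormone-sensitive lipase, Lipe, had 8 sites, of which ctrl. held 1, cal. res. 0 and CORT 2. Of their 44 sites with a region in all 6 lists none passed the limma threshold in any contrast, with 4, 5 and 9 at an unadjusted p under 0.05.

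At the edge of the window, the sites just inside 50 kb lay between 20.3 and 50 kb from the gene starts and the next ones outside lay between 50.22 and 75.19 kb. At Angptl4 the outermost site inside, 47.25 kb upstream, had percentiles of 88.6 in ctrl. replicate 1, 93.7 and 91.3 for cal. res. and 93.6 and 97.8 for CORT, with no region in ctrl. replicate 2. The first outside, at 61.44 kb, had 77.7 and 80.9 for ctrl., 25.2 and 55.9 for cal. res. and 92.6 and 93.4 for CORT. The next site outside the Pnpla2 window, at 62.52 kb, was strong, between 80.7 and 95.1 in the 6 lists, and those outside the other windows had a region in 1 to 5 lists.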

How the data were processed

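GR ChIP-seq region lists from 6 mouse liver libraries and 1 pooled FOXO1 list were analysed. The authors aligned reads to mm10 with BWA, removed duplicates and poorly mapped reads, called peaks with MACS2 in each GR library on its own (FOXO1: 2 merged libraries) and removed blacklisted regions. Whether an input control was used is not given in the sources used here. The deposited values are fold enrichment, a ratio, and -log10 p-values and q-values from the caller. The largest q was 0.0998 in the GR lists and 9.84e-06 in the FOXO1 list. Read depth was not analysed here.

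Rows with the same ends were reduced to their strongest summit. Regions sharing 1 bp were merged into sites, and a site belonged to a gene when its centre lay within 50 kb of the gene start in GENCODE M21. All regions on the named chromosomes lay inside the GRCm38 lengths. A group held a site when both libraries had a region. Percentiles were ranks of fold enrichment within a list. Sequences were read from the RefSeq GRCm38 genome. Limma 3.58.1 (R 4.3.3) was fitted to log2 fold enrichment over all sites with a region in all 6 lists. It was afterwards also run on data simulated from that fit, and the outcome is not given here. The other steps used Python 3.11.15. With 2 libraries against 2 an exact permutation test cannot go below p = 0.333, so single values carry none.

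The 8 genes, the 22 other genes and the motifs were chosen with earlier results of these data known. Named sites were, per gene, the one with the highest mean percentile (an absent region counted as 0), the one nearest the start, those held by cal. res. or CORT with no region in ctrl., any that passed limma, and those nearest to either side of 50 kb. Alternatives were a q of at most 0.01, 12458 regions per library, other windows and joining rules, presence in either library, a single name style, stronger FOXO1 regions, FOXO1 summits within 100 bp, other scalings, p-values in place of fold, no site filter, terms for replicate number and name style, and leaving out each library.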

Additional observations from a re-analysis of the deposited data

How the results depend on the processing

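Among counts and shares, 100 recomputed values stayed within 1.5 times the value given (counts) or inside its binomial interval (shares), and 48 did not. The 100 include values that a setting could hardly move, such as the sites a group held when a library of another group was left out. The tally is therefore no measure of how stable the results are. Sites held by ctrl., cal. res. and CORT numbered 72, 60 and 99 when either library sufficed and 17, 22 and 36 within 25 kb, and CORT held 30 with equal list lengths. Leaving out each library in turn they lay between 29 and 71 (ctrl.), 36 and 50 (cal. res.) and 56 and 97 (CORT), where the extremes come from leaving out ctrl. replicate 2, cal. res. replicate 1 and CORT replicate 1. Gained sites (cal. res., then CORT) were 4 and 11 with equal list lengths, 7 and 19 within 25 kb, and 19 for cal. res. within 100 kb, and CORT gained 6 within 1 name style. Leaving out a library gave 3 to 24 and 6 to 69, both lowest without ctrl. replicate 2. The share of sites with FOXO1 moved to 27.8% for ctrl. when either library sufficed, to 53.3% for CORT with equal list lengths, and to 25% and 16.1% for cal. res. and CORT with the stronger 50% of FOXO1 regions, and without a library it ran from 28.2% (without ctrl. replicate 2) to 51.7% for ctrl. Joining rows only where they shared 50% of the shorter one, an alternative chosen after seeing the data, left every count within 1.5 times. The rule that a region must share 50% of the shorter interval with its site could not change anything, since each region lies inside its site.

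Limma calls over all sites (cal. res. against ctrl., CORT against ctrl., cal. res. against CORT) were 22, 20 and 315 with median centring, 0, 13 and 20 with -log10 p-values, 21, 58 and 34 with no site filter, 2, 18 and 49 with equal list lengths, and 0, 27 and 0 with name style as a term. Without a library they ran from 0 to 20, 0 to 59 and 0 to 385, highest without ctrl. replicate 2, where the third was 255 without ctrl. replicate 1. Without cal. res. replicate 1 or either CORT library all 3 were 0, and without cal. res. replicate 2 they were 0, 1 and 0. The replicate block gave 0, 11 and 2 calls. The labels do not say that equal numbers pair the libraries, and deviations of same-numbered libraries correlated at -0.112, -0.143 and 0.129. These correlations rest on a single replicate difference per group and cannot say whether same-numbered libraries were processed together. Sites at the 8 genes were called only for cal. res. against CORT, 2 with median centring and 3 without either ctrl. library, as given above. Single differences against ctrl. that changed sign, none of them called, were 0.44 and 0.21 (Angptl4, median centring), 0.15 (Pnpla2, cal. res., median centring), -0.20 (Plin2, CORT, name style as a term) and -0.14 (Cidec, cal. res., name style as a term). Without 1 library in turn the differences that changed sign ran, for cal. res., from -0.47 to 0.23 at Pnpla2 and from -0.14 to 0.49 at Cidec, and for CORT, from -0.19 to 0.07 at Angptl4, -0.47 to 0.14 at G0s2, -0.20 to 0.93 at Plin2, -0.25 to 0.48 at Plin4 and -0.58 to 0.78 at Cd36. The cause of these changes was not tested.

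Absence from a list means only that no region passed the caller's threshold there, and ctrl. replicate 2 has the shortest list, with 12458 regions. Read depth was not analysed here, so no counting interval stands behind the percentiles.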
